A study of Mus musculus with 13 samples.

Results

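The genes described here are 10 members of the Notch pathway: the ligands Jag1, Jag2, Dll1 and Dll4, the receptors Notch1, Notch2, Notch3 and Notch4, and the transcriptional targets Hes1 and Hey1. They were chosen by name, and all 10 are among the 55353 genes in the deposited counts. Their raw unique molecular identifier (UMI) counts were read in the 95563 barcodes, of 17968683, that held at least 1500 UMIs and are called cells below. Cells were placed in classes by marker genes: 4049 biliary epithelial cell (BEC)-like, 26886 liver sinusoidal endothelial cell (LSEC)-like, 1535 large-vessel endothelial-like, 9807 macrophage-like and 11035 dendritic cell (DC)-like cells. BECs were split by whether they held a UMI of Dmbt1 or Muc4, a secreted scavenger receptor and a membrane mucin of larger ducts.

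The study followed cholangitis in C57BL/6J mice fed 3,5-diethoxycarbonyl-1,4-dihydrocollidine (DDC), a compound that causes bile duct injury, at 0.1% in chow. The mice were males 6 to 12 weeks old according to the labels and the study's methods. Livers were taken at D0, D3, D5, D9, D19 and D25 of the diet, with 1 library from each of isolation protocols A and B per day, and 1 protocol B library after 18 days of DDC and 7 days of recovery (STOP). D3 and D5 are grouped as onset, and D9, D19 and D25 as progression. The D19 library of protocol B carries D18 in its group label and is counted as D19. Protocol A sorted single live cells positive for Cd45, Lyve-1, Pdpn, Epcam, Cd31 without Lyve-1, or retinoid fluorescence. Protocol B sorted live cells of a stellate cell preparation, Cd45+ Itgax+ Cd64- cells, Epcam+ cells and Cd3e+ Lyve-1- cells. The sort therefore sets the mixture of cells, and levels below are given within a class and not per liver. The labels do not say that libraries of a day came from separate mice, so p-values measure the spread between libraries, which differ in protocol.

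Notch ligands sit on the membrane of one cell and bind receptors on its neighbour. Binding exposes the receptor to cleavage by an ADAM protease and then by gamma-secretase, and the freed intracellular domain acts with Rbpj in the nucleus, where Hes and Hey repressor genes are typical targets. In liver, Jag1 and Notch2 are needed for bile duct formation, and Dll4 with Notch1 and Notch4 are known for their roles in endothelium.

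Each class carried the markers it was defined by. The summed level of 10 BEC markers was 4678 to 7609 UMIs per 1000000 UMIs of the class in a library (CPM). That of 9 LSEC markers was 7332 to 13650 in LSEC-like and 1756 to 3602 in large-vessel cells, and that of 10 macrophage markers was 10680 to 25470 in macrophage-like and 172 to 341 in DC-like cells. Near the limits of the marker rule lay 258 BEC-like, 1522 LSEC-like, 56 large-vessel, 1198 macrophage-like and 728 DC-like cells, and 18713 cells had no class. Libraries held 29307190 to 108602421 UMIs, 1541 to 14764 cells and a median of 3350 to 12013 UMIs per cell. Pairs of libraries shared 1 to 49 cell barcodes.

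The promoters of Jag1, Notch2, Dll1 and Notch1 are printed because these are the members that differed between BECs with and without Dmbt1 or Muc4 UMIs. The sequences are the 250 bases before the annotated start of the gene, outside its exons, from RefSeq on GRCm38.p6, with each occurrence of the SOX-type letters ACAATG, or CATTGT on the other strand, in capitals. Jag1 lies at chr2:137081451-137116520 on the minus strand, and its window at chr2:137116521-137116770. Notch2 lies at chr3:98013538-98150367 on the plus strand, with the window chr3:98013288-98013537. Dll1 lies at chr17:15367354-15376932 on the minus strand, with the window chr17:15376933-15377182. Notch1 lies at chr2:26457902-26503822 on the minus strand, with the window chr2:26503823-26504072.
Jag1: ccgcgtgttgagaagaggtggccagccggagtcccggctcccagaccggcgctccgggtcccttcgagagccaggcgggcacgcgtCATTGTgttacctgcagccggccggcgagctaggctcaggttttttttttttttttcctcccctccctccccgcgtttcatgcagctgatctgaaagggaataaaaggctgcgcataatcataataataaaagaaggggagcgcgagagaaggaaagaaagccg
Notch2: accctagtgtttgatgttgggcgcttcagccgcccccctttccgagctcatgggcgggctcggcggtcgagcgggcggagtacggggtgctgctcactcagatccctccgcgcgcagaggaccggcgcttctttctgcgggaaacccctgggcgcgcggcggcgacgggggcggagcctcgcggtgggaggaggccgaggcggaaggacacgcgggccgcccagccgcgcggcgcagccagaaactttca
Dll1: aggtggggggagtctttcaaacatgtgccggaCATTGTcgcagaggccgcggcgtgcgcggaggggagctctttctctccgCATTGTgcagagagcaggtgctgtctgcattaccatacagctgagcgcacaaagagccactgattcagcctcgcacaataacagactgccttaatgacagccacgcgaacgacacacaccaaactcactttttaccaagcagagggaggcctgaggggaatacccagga
Notch1: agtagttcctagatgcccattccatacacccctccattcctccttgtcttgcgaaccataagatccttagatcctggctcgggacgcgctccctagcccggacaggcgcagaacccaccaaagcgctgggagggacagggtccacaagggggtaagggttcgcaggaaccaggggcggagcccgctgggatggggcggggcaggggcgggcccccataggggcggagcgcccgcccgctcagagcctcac

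The Jag1 window holds 1 match, beginning 164 bases before the start, and the Dll1 window printed holds 2, beginning 218 and 169 bases before it. A window of another Dll1 start, at chr17:15375824-15376073, holds 0. The Notch2 and Notch1 windows hold 0. Of the 9 windows found for 8 members, 3 hold the letters, and 10.7% of all 32851 mouse windows of this length do. The letters TGGGAA or TTCCCA, the core bound by Rbpj, are in 0 of the 9 windows and in 21.6% of all windows. GC content was 57.2% for Jag1, 56.0% for Dll1, 66.0% for Notch1 and 72.0% for Notch2, against a median of 52.4%. Hes1 at chr16:30065357-30067796 and Hey1 at chr3:8663359-8667038 are named only. A match of letters is a description of the sequence and does not show binding.

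Jag1, the ligand whose loss causes Alagille syndrome, was highest in large-vessel endothelial-like and BEC-like cells. Its level was 212 ± 74.6 CPM in large-vessel cells (SD, n = 8 libraries with at least 20 cells) and 200 ± 61.1 in BEC-like cells (n = 9). These classes overlapped, with 113 to 334 and 85.9 to 266. Lymphatic endothelial-like cells followed with 108 ± 25.6 (n = 5), then hepatocyte-like cells with 65.8 ± 48.4 (n = 4) and stellate or fibroblast-like cells with 63.9 ± 35.6 (n = 7), and LSEC-like cells had 25.7 ± 8.02 (n = 12). A Jag1 UMI was seen in a median of 72.0% of BEC-like cells at 15060 UMIs per cell, and in 3.01% of T or NK-like cells at 4252. After every cell was thinned to 1500 UMIs, the medians were 25.1% and 1.07%.

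Dll4 and Dll1 were highest in endothelial classes, and Jag2 in lymphatic and DC-like cells. Dll4, the ligand of sprouting and arterial endothelium at chr2:119325784-119335666, stood at 69.4 ± 32.1 CPM in lymphatic (n = 5), 67.8 ± 25.1 in LSEC-like (n = 12) and 38.1 ± 12.7 in large-vessel cells (n = 8). The lowest large-vessel library, 16.3, was above the highest DC-like library, 15.3. A Dll4 UMI was seen in a median of 20.7% of LSEC-like cells and 0.0558% of T or NK-like cells. Dll1 was 40.7 ± 8.64 in lymphatic, 39.7 ± 22.3 in large-vessel, 24.8 ± 10.2 in LSEC-like and 12.8 ± 3.76 in BEC-like cells, and each of these ranges overlapped the next. Jag2, at chr12:112907803-112929812, was low, with 13.6 ± 9.68 in lymphatic, 7.35 ± 4.95 in DC-like and 6.4 ± 10.9 in large-vessel cells, and with overlap between them.

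Among the receptors, Notch4 (chr17:34564286-34588543) was highest in LSEC-like cells. It was 39.2 ± 4.26 CPM in LSEC-like cells (n = 12) and 23.5 ± 6.56 in large-vessel cells (n = 8). Neither range overlapped the class below it, and lymphatic cells had 6.29 ± 3.56. Notch1 was 96.5 ± 24.6 in large-vessel, 79.5 ± 26.0 in LSEC-like and 66.1 ± 23.8 in lymphatic cells, and 41.3 ± 15.9 in neutrophil-like cells (n = 11).

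Notch2 had another distribution, with the highest levels outside endothelium. It was 257 ± 87.6 CPM in neutrophil-like cells (n = 11), 234 ± 86.4 in B-like cells (n = 4) and 223 ± 60.8 in monocyte-like cells (n = 5). Next came 179 ± 42.1 in DC-like cells (n = 12), 157 ± 60.5 in BEC-like cells (n = 9), 106 ± 31.2 in stellate or fibroblast-like cells (n = 7) and 91.1 ± 23.9 in macrophage-like cells (n = 12), with overlap between neighbours in the order. In LSEC-like cells a Notch2 UMI was seen in a median of 5.95% of cells, against 18.9% of T or NK-like cells. The latter held Notch2 at 60.0 ± 16.7 CPM and were not set as background for it. Whether the low LSEC-like level is expression was not tested. LSEC-like Notch2 also went with the protocol, at 5.18 to 17.7 in protocol A and 15.4 to 48.4 in protocol B. Notch3 (chr17:32120820-32166896), a receptor of mural cells, was 5.08 ± 3.84 in stellate or fibroblast-like cells from 42 UMIs in 7 libraries, and at most 0.348 as a mean in the others of the 12 main classes. Among subsets the highest mean was 1.37, from 16 UMIs in pDC-like cells. No Notch3 UMI was seen in 10777 T or NK-like cells.

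Hes1, a repressor induced by Notch and by other signals, was detected in most classes. It was 710 ± 253 CPM in lymphatic, 377 ± 89.6 in BEC-like, 306 ± 97.1 in LSEC-like, 237 ± 56.6 in large-vessel, 230 ± 147 in hepatocyte-like, 198 ± 157 in stellate or fibroblast-like and 114 ± 122 in macrophage-like cells, with each neighbour overlapping. A Hes1 UMI was seen in a median of 78.1% of BEC-like, 56.2% of LSEC-like, 5.45% of DC-like and 2.81% of T or NK-like cells. Hey1, its relative with roles in arterial and lymphatic endothelium, was 43.4 ± 9.81 in lymphatic cells, above every library of any other class with at least 20 cells. The next classes were large-vessel cells with 6.01 ± 3.35 and macrophage-like cells with 5.65 ± 4.27.

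**Figure D1:**
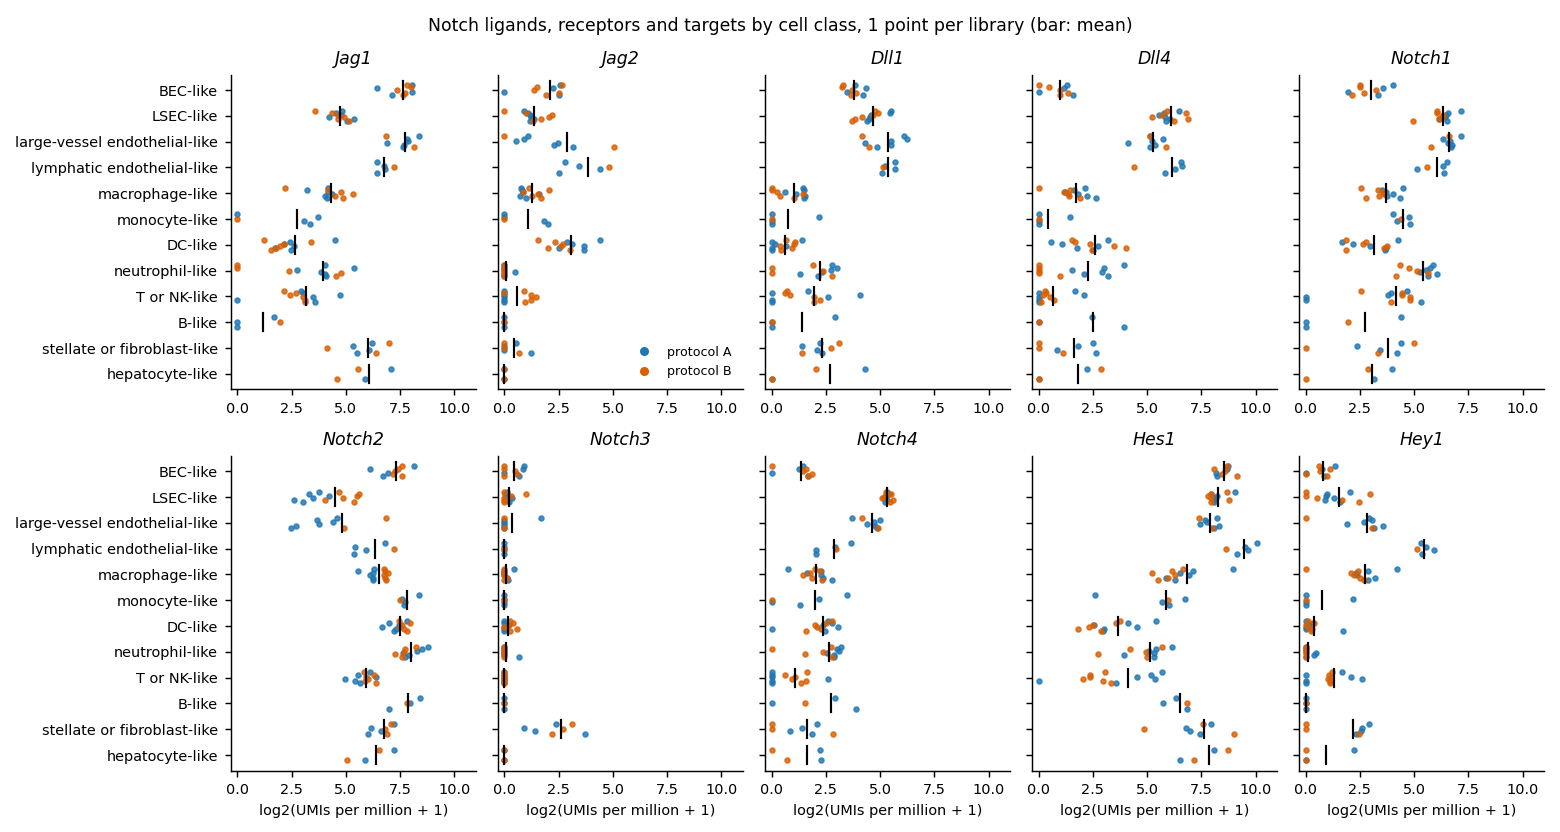
Level of each of the 10 genes, in CPM on a log2 scale, in the 12 main classes. Points are libraries and bars are means. Jag1 is high in BEC-like and large-vessel cells and Notch4 in LSEC-like and large-vessel cells. Notch2 is high in neutrophil-like, B-like, monocyte-like, DC-like and BEC-like cells.

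Genes whose levels across 18 classes were most like a member's were found among 6856 genes by Pearson's r of log2 levels, as a description that shares libraries and depth. For Jag1 they were Agrn with r = 0.92, Tgfb2 with 0.92 and Mfge8 with 0.91. For Hes1 they were Arhgef12 with 0.92, Nfib with 0.92 and March8 with 0.91. For Dll1 they were Ica1 with 0.97, Hid1 with 0.97 and Dab2ip with 0.95, and for Notch1 they were Ctdsp1 with 0.91, Strn with 0.90 and Ythdf1 with 0.90. For Notch4, r was 0.89 with Ap1b1, 0.89 with Plppr5 and 0.88 with Golga7, and for Dll4 0.88 with Eps15, 0.88 with Myzap and 0.87 with Nova2. For Notch2, r was 0.87 with B9d2, 0.84 with Map3k5 and 0.83 with Isyna1. The lowest values were for Jag2, with 0.76 for Stk19, 0.74 for Ahr and 0.69 for Grasp. Hey1 was most like Chp2 with 0.92, Tanc2 with 0.87 and Pde8a with 0.87, and Notch3, at its low counts, most like Matn2 with 0.92, Upk1b with 0.88 and Lama2 with 0.88.

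BECs with and without Dmbt1 or Muc4 UMIs differed in ligand and receptor. Jag1 and Notch2 were lower, and Dll1 and Notch1 higher, in BECs with these UMIs. The level of Notch1 in both kinds of BEC was below the mean of 17.0 in T or NK-like cells. Those cells were not set as background for Notch1, and its change is given as a difference at a low level. Of the 8 members tested, 4 passed edgeR's quasi-likelihood test with Benjamini-Hochberg adjustment over all genes tested, which is the source of every adjusted p below, and 40.9% of all genes tested did, so the count is near the background and the values of each gene are what is described. Notch3 was below the filter on low counts in every comparison and Hey1 in this one. Cells with a Dmbt1 or Muc4 UMI were 3.45% to 55.6% of the BEC-like cells of a library, and 8 libraries held at least 20 cells of each kind.

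Jag1 ran from 29.2 to 138 CPM, with a median of 51.0, in BECs with these UMIs, and from 173 to 324, with a median of 255, in those without. The groups did not overlap, and Jag1 was lower in 8 of 8 libraries, with a log2 change of -2.0 ± 0.16 (SE, edgeR adjusted p = 8.79e-07). A Jag1 UMI was seen in a median of 37.9% of the cells with and 78.3% of those without, at 17844 and 15178 UMIs per cell, and in 6.65% and 27.3% after thinning. The 2 libraries where cells with these UMIs were most frequent, D9 A with 55.6% and D25 A with 42.7%, also had the lowest Jag1 over all BEC-like cells, 85.9 and 137.

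Notch2, the receptor paired with Jag1 in duct formation, ran from 37.0 to 156 CPM (median 81.2) in BECs with and from 115 to 303 (median 170) in BECs without these UMIs. It was lower in 8 of 8 libraries, although the groups overlapped, with a log2 change of -1.10 ± 0.12 (edgeR adjusted p = 1.68e-05). Dll1 ran from 8.30 to 33.5 with and from 1.61 to 14.3 without, with medians of 22.3 and 9.51. It was higher in 7 of 8 libraries, by 1.25 ± 0.24 on the log2 scale (edgeR adjusted p = 0.00119). Notch1 had medians of 10.1 and 5.34 and was higher in 7 of 8 libraries, by 0.77 ± 0.21 (edgeR adjusted p = 0.0111). After thinning the adjusted p in edgeR was 0.0687 for Dll1, and Notch1 was below the filter. Without the term for the library the adjusted p in edgeR was 0.109 for Notch1.

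Hes1 did not pass the test between these BECs, at a log2 change of -0.03 ± 0.26 (edgeR adjusted p = 0.954). Its level was 156 to 1290 CPM (median 330) with and 286 to 522 (median 374) without. The highest value belongs to D25 B, where Hes1 stood at 1290 in 83 cells with Dmbt1 or Muc4 UMIs and at 341 in the others of the same library. Jag2 changed by -0.26 ± 0.37, Dll4 by 0.57 ± 0.53 and Notch4 by 0.25 ± 0.36, none past the test. Cells with at least 3 of these UMIs against cells with 0, an alternative chosen after the values were seen, gave -2.32 for Jag1, -1.25 for Notch2, 1.37 for Dll1 and 0.83 for Notch1, and all 4 again passed edgeR.

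**Figure D2:**
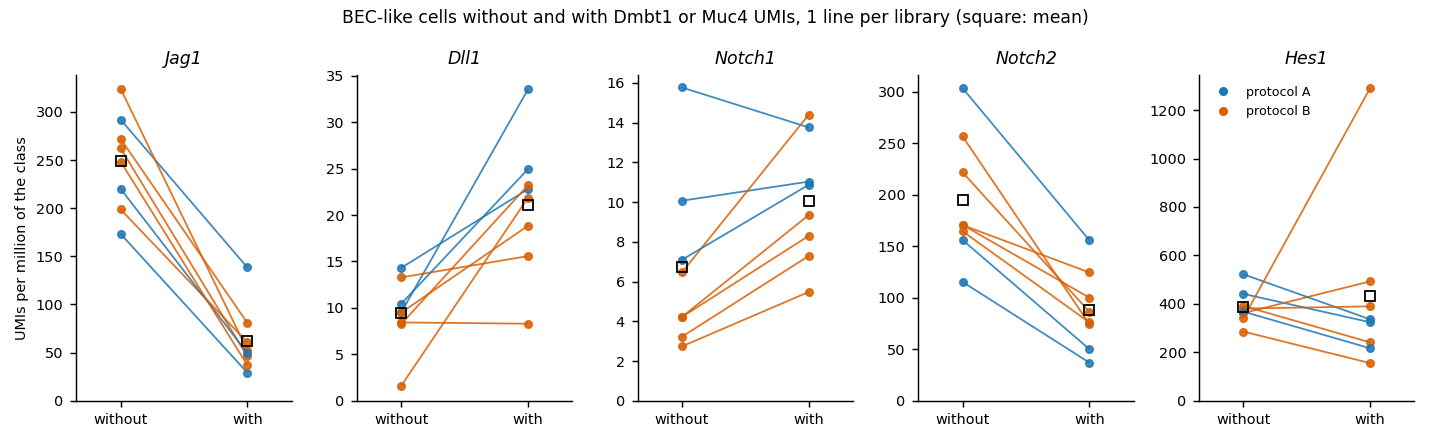
Levels of members in BECs with and without a Dmbt1 or Muc4 UMI, in CPM. Each line joins the 2 kinds of cell of 1 library. All 8 lines fall for Jag1 and Notch2, and the D25 B line rises to 1290 for Hes1.

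Of the 44 other Notch pathway genes tested there, 8 were higher and 9 lower in BECs with Dmbt1 or Muc4 UMIs, a share near the 40.9% of all genes. By role, 5 of 10 cleavage genes were higher and 0 lower, 3 of 9 nuclear complex and corepressor genes were higher and 1 lower, 3 of 9 inhibitors and turnover genes were lower, and 4 of 6 other targets were lower. Sox9, a duct factor and Notch target, changed by -1.37 and Myc by -1.49. The deltex genes Dtx3 and Dtx1 changed by -1.05 and -1.78, and Neurl1a, a ligand ubiquitin ligase, by -1.99. Named after their values were seen, the protease gene Adam10 was higher by 0.45 and the gamma-secretase gene Ncstn by 0.44. Beside these, Dusp1 was higher by 0.73 and Atf3 by 0.36, both immediate early genes, and 3 of 9 LSEC and 3 of 10 macrophage markers were higher. The part of these in the result was not tested.

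In BEC-like cells over the diet, 0 of 9 members tested passed edgeR between DDC and D0, where 0.844% of genes did, and 0 between progression and onset, where 0% did. At an unadjusted p under 0.05 the counts were 1 and 0, and DESeq2 called 1 and 0. BEC-like Notch2 was 279 CPM at D0 (1 library), 192 and 166 at onset, and 67.8 to 190 (median 132) in 6 progression libraries. Every DDC library was below D0, and the log2 change was -1.22 ± 0.33 (edgeR adjusted p = 0.0943). Beside it, the summed level of 8 hepatocyte markers was 5413 at D0 and 1313 to 3235 with DDC, and the immediate early and heat shock genes had a median change of -1.25 with 0 of 10 called. Their part in the result was not tested. Jag1 was 266 at D0, 227 and 254 at onset and 85.9 to 260 (median 182) in progression, a change of -0.37 ± 0.46. BECs with Dmbt1 or Muc4 UMIs were 13% at D0 and 3.45% to 55.6% with DDC, and Jag1 changed by -0.05 ± 0.31 in BECs without and -1.30 ± 0.44 in BECs with them, neither past edgeR. Hes1 was 422 at D0 and 273 to 560 with DDC, a change of -0.27 ± 0.40. With 1 D0 library of BEC-like cells, the test against D0 has no replicate at D0. That library is of protocol A and both onset libraries are of protocol B, so D0 and onset also differ in protocol. The term for protocol therefore rests on the progression libraries.

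Some of the members differed in level between large-vessel cells and LSEC-like cells. Jag1, Hey1 and Dll1 were higher and Dll4, Notch4 and Hes1 lower in large-vessel cells, which makes 6 of the 9 members tested in 8 libraries, against 39.9% of all genes. Jag1 was 113 to 334 CPM (median 212) in large-vessel and 17.8 to 40.7 (median 25.3) in LSEC-like cells. The groups did not overlap and the log2 change was 2.89 ± 0.14 (edgeR adjusted p = 3.68e-12, higher in 8 of 8). Neutrophil-like cells, set as background for ligands, held Jag1 at 14.5 ± 12.2 (0 to 40.1). That range overlapped the LSEC-like one and lay below the large-vessel one. The size of the Jag1 change therefore rests on an LSEC-like level not told apart from background. Hey1 was 0 to 10.9 (median 6.93) against 0 to 3.17 (median 1.21), higher in 7 of 8 libraries by 2.20 ± 0.37 (edgeR adjusted p = 8.78e-05). Mean Hey1 over all LSEC-like libraries, 1.94, was near the 1.46 of T or NK-like cells, which were set as background for it. The size of this change therefore rests on a level not told apart from background.

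Dll4 and Notch4 went the other way. Notch4 was 12.2 to 30.8 CPM (median 25.8) in large-vessel and 34.8 to 47.5 (median 38.4) in LSEC-like cells of the same libraries, without overlap, a log2 change of -0.75 ± 0.14 (edgeR adjusted p = 1.93e-04). Dll4 was 16.3 to 57.8 against 46.2 to 118, lower in 8 of 8 libraries by a log2 change of -0.81 ± 0.16 (edgeR adjusted p = 2.92e-04). Hes1 changed by -0.46 ± 0.12 (edgeR adjusted p = 0.00346, lower in 7 of 8) and Dll1 by 0.56 ± 0.14 (edgeR adjusted p = 0.00311, higher in 6 of 8). Notch1, with medians of 98.1 and 86.0, changed by 0.04 ± 0.10 (edgeR adjusted p = 0.769). Notch2 and Jag2 also missed the threshold, at 0.41 ± 0.17 and 1.27 ± 0.50. Without a term for the library 3 members passed edgeR: Jag1, Dll4 and Notch4.

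**Figure D3:**
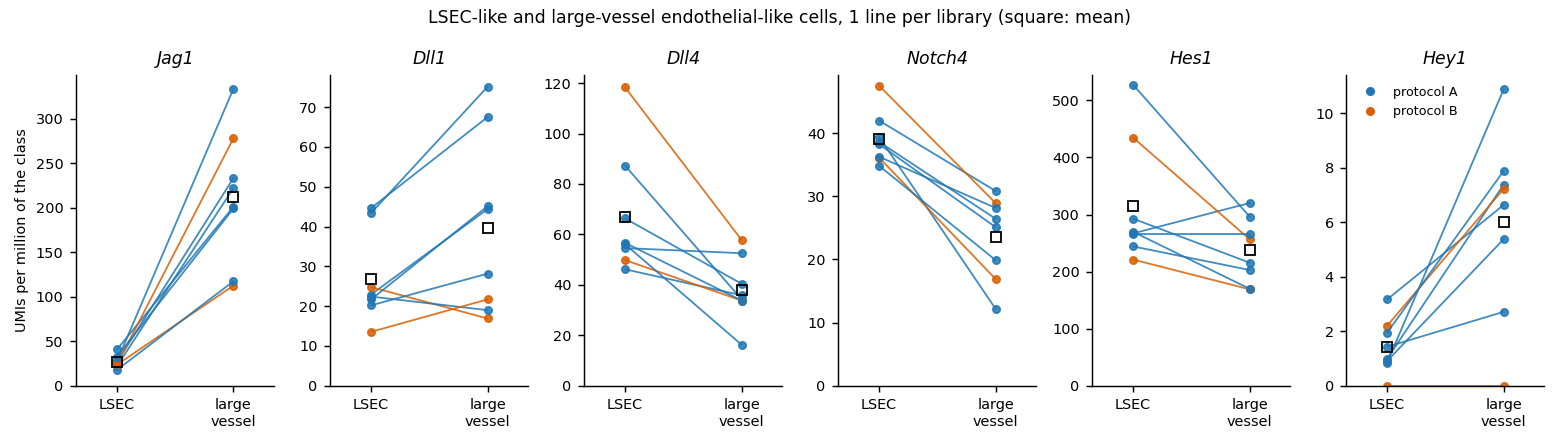
Levels of members in LSEC-like and large-vessel endothelial-like cells, in CPM. Each line joins the 2 classes of 1 library. Jag1 rises and Dll4 and Notch4 fall from LSEC-like to large-vessel cells in all 8 libraries.

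Among 41 other pathway genes tested, 10 were higher and 7 lower in large-vessel cells, a share near the 39.9% of all genes. Ccnd1, a cell cycle gene, changed by -2.14, Myc by -1.93, the coactivator Maml3 by -1.08 and Mib1, which activates ligands by ubiquitination, by -0.57. Dtx3 was higher by 0.85. Beside them, 6 of 10 macrophage markers were lower and 5 of 10 immediate early and heat shock genes higher in large-vessel cells. Their part in the result was not tested.

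Large-vessel cells with a UMI of Gja4 or Gja5, gap junction genes of arteries, had more Jag1 and Hes1 than those without in 6 libraries. There 2 of 7 members passed edgeR, against 2.72% of genes, and Jag2 and Hey1 were below the filter. Jag1 was 129 to 403 CPM (median 245) with and 106 to 284 (median 167) without, with overlap, and was higher in 6 of 6 libraries by 0.53 ± 0.11 (edgeR adjusted p = 0.00902). Hes1 was higher in 5 of 6 by 0.51 ± 0.14 (edgeR adjusted p = 0.0459), with medians of 251 and 194, and lost the call in 10 of 15 alternatives. Dll4 changed by 0.77 ± 0.22 (edgeR adjusted p = 0.0603). Of 32 other pathway genes tested 0 passed edgeR, with 6 at an unadjusted p under 0.05 and 0 by DESeq2.

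Over the diet, 0 of 9 members passed edgeR in LSEC-like cells between DDC and D0, against 0.509% of genes, or between progression and onset, against 0.0299%. At an unadjusted p under 0.05 the counts were 1 and 2, and DESeq2 called 1 and 0. Hes1 in LSEC-like cells was 528 and 412 CPM at D0, 221 to 293 in the 4 onset libraries and 245 to 435 in progression. D0 B lay below D19 B, the other DDC libraries lay below both D0 libraries, and the log2 change was -0.75 ± 0.20 (edgeR adjusted p = 0.135). The immediate early and heat shock genes had a median change of -0.83 there, with 0 of 10 called, and their part was not tested. Dll1 was 44.6 and 25.9 at D0, 22.9 to 43.4 at onset and 12.0 to 22.4 in progression. Every progression library was below every onset library, with a change of -0.77 ± 0.22 from onset (edgeR adjusted p = 0.275). Notch4 stayed between 32.7 and 47.5 in all 12 libraries.

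In large-vessel cells 0 of 9 members passed edgeR between DDC and D0, against 0.097%, and 0 between progression and onset, against 0.233%. Unadjusted, the counts were 1 and 3, and DESeq2 called 0 and 0. Jag1 was 334 CPM at D0 (1 library), 113, 222 and 234 at onset, and 117, 199, 201 and 278 in progression. Notch4 was 12.2 at D0 and 16.9 to 30.8 with DDC, a change of 1.43 ± 0.50 (edgeR adjusted p = 0.269), and the test against D0 has no replicate at D0, since D0 B held 2 such cells. Notch2 changed by -1.33 ± 0.38 (edgeR adjusted p = 0.229) and Jag2 by 3.12 ± 0.87 (edgeR adjusted p = 0.204) from onset to progression. Large-vessel Notch2 was low, with a UMI in a median of 6.66% of cells against 18.9% of T or NK-like cells. Whether this level is expression was not tested. Jag2 rested on 30 UMIs in 8 libraries, with 32.5 in D19 B and a median of 2.50. The macrophage markers moved with these, with 3 of 10 higher in progression, and their part was not tested.

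Macrophage-like cells gave the 1 diet call among the members: Hes1 was lower with DDC. Among the 9 tested, 1 passed edgeR against D0, where 3.25% of genes did, and 0 passed between progression and onset, where 0.126% did, with 0 at an unadjusted p under 0.05 and 0 by DESeq2 in the latter. Hes1 was 491 CPM in D0 A and 100 in D0 B. With protocol A it was 138 at D3, 89.6 at D5, 122 at D9, 58.0 at D19 and 77.6 at D25. With protocol B it was 69.5 at D3, 36.9 at D5, 75.9 at D9, 60.7 at D19 and 44.9 at D25. Within each protocol D0 was the highest library, but D0 B lay below D3 A and D9 A.

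The log2 change of Hes1 in macrophage-like cells was -1.52 ± 0.31 (edgeR adjusted p = 0.0200). Without D0 A it was -0.95 (edgeR adjusted p = 0.216), in protocol A alone -1.85 (edgeR adjusted p = 0.0650) and in protocol B alone -1.07 (edgeR adjusted p = 0.101). Without the term for protocol it was -1.65 (edgeR adjusted p = 0.0932). Several values moved with this result. The immediate early and heat shock genes Dusp1, Junb, Ier2 and Hspa1a were lower with DDC by -0.85, -0.85, -1.24 and -2.81 on the log2 scale, 4 of 10 on that list. The summed level of 7 endothelial markers in macrophage-like cells was 1030 in D0 A, 111 in D0 B and 126 to 664 with DDC. Hes1 in T or NK-like cells was 50.5 in D0 A and 7.26 in D0 B. The part of these in the result was not tested.

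Cells with at least 3 of 5 Kupffer cell markers made 74.4% of macrophage-like cells in D0 A, 10.5% in D0 B and 10.9% to 59.6% with DDC. Among them alone Hes1 was 568 and 174 CPM in D0 A and D0 B and 54.0 to 180 with DDC, and among cells with at most 1 marker it was 250 and 93.1 against 29.7 to 118. The log2 changes were -1.50 (edgeR adjusted p = 0.0438) and -1.41 (edgeR adjusted p = 0.0231), in a split added after the values were seen. Other members had different medians across the same split, with overlapping ranges. Jag1 was 0 to 8.94 (median 4.15) in the 11 libraries with at least 20 Kupffer-marker cells and 3.93 to 47.9 (median 26.4) in 12 libraries of the others, and Hey1 was 0 to 23.3 (median 9.15) and 0 to 5.50 (median 1.91). The median of Jag1 in Kupffer-marker cells was below the mean of 8.03 in T or NK-like cells. These 2 pairs of groups were not tested.

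**Figure D4:**
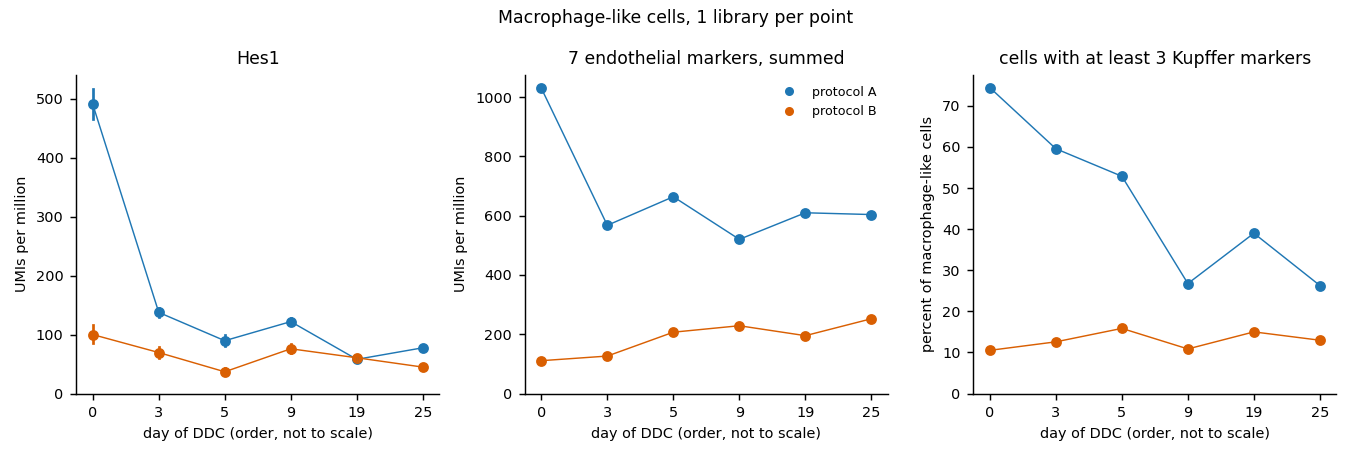
Level of Hes1 in macrophage-like cells by diet day, in CPM. Beside it are the summed level of 7 endothelial markers, in CPM, and the percent of cells with at least 3 Kupffer markers. Points are libraries of protocol A or B. D0 A stands at 491 and D0 B at 100 over all cells.

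Of 44 other pathway genes tested in macrophage-like cells, 2 passed edgeR between DDC and D0, a share near the 3.25% of all genes. Aph1b, a gamma-secretase subunit, changed by -1.13 (edgeR adjusted p = 0.0266) and Furin, which cuts the receptors on their way to the surface, by 0.75 (edgeR adjusted p = 0.0307). Macrophage-like Jag1 was 17.3 and 3.60 CPM at D0 and 8.11 to 38.6 with DDC, a change of 0.86 ± 0.43 (edgeR adjusted p = 0.303). Notch2 was 78.3 and 108 at D0 and 46.2 to 121 with DDC, a change of 0.00 ± 0.17. In the other 9 diet comparisons 0 of 36 to 45 other pathway genes passed edgeR, with 4 calls by DESeq2 and, of 378 tests, 66 at an unadjusted p under 0.05.

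DC-like and macrophage-like cells of the same 12 libraries differed in 7 of 9 members tested, against 60.5% of all genes, so this count is near the background. Notch2 was 101 to 244 CPM (median 177) in DC-like and 46.2 to 121 (median 92.4) in macrophage-like cells. It was higher in 12 of 12 libraries, although the ranges overlapped, by 1.0 ± 0.09 (edgeR adjusted p = 5.29e-08). Jag2 was 1.93 to 19.9 (median 5.89) against 0.617 to 3.17 (median 1.10), higher in 12 of 12 by 2.18 ± 0.31 (edgeR adjusted p = 1.01e-05). Hes1 was 2.47 to 41.6 (median 7.01) against 36.9 to 491 (median 76.7), lower in 12 of 12 with a log2 change of -3.29 ± 0.18 (edgeR adjusted p = 6.08e-11).

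The other called members were Jag1 with -2.25 ± 0.33 (edgeR adjusted p = 1.13e-05), Notch1 with -0.75 ± 0.19 (edgeR adjusted p = 0.00235), Dll4 with 1.16 ± 0.37 (edgeR adjusted p = 0.0118) and Hey1 with -4.68. Hey1 was below the filter in the diet comparisons of DC-like cells. It entered this test through its macrophage-like counts, and its call is not used as support. Mean Notch1 was 7.84 in DC-like and 11.8 in macrophage-like cells, below the 17.0 of T or NK-like cells. Those were not set as background for Notch1. DC-like Jag1, 5.25, was below their 8.03, so these are differences at low levels. Neutrophil-like cells, set as background for ligands, held Jag1 at 14.5 (0 to 40.1) and Dll4 at 3.81 (0 to 14.2). Macrophage-like Jag1 was 19.2 (3.60 to 38.6), and Dll4 was 5.08 in DC-like and 2.27 in macrophage-like cells. The sizes of the Jag1 and Dll4 changes therefore rest on levels not told apart from background. The DC-like side of Hes1 was also low, at 11.6 against 16.2 in T or NK-like cells. That of Hey1 was 0.29 against 1.46, with 11 UMIs counted in all DC-like libraries. T or NK-like cells were set as background for Hey1 and not for Hes1. The size of the Hey1 change therefore rests on a level not told apart from background. The direction of Dll4 depended on plasmacytoid DC (pDC)-like cells: without them it was -1.12 (edgeR adjusted p = 0.00391). All 7 markers of endothelium were tested and 6 were lower in DC-like cells, and their part in the result was not tested. Of 44 other pathway genes tested, 9 were higher and 22 lower, beside the 60.5% of all genes called. The sheddases Adam10 and Adam17 changed by -1.39 and -1.29, Ncstn by -0.98, Dtx4 by -1.69 and Ccnd1 by 1.84.

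Within DC-like cells the ligands were divided between subsets. Dll4 was mainly in pDC-like cells, with a UMI in a median of 15.6% of them at 7120 UMIs per cell and in 0.422% of conventional type 1 (cDC1)-like cells at 10706. Jag2 was mainly in cDC1-like cells, with a UMI in a median of 12.5% of them, and the share in type 2 (cDC2)-like cells, at 9233 UMIs per cell, was lower. Over 12 libraries of T or NK-like cells, the median share with a UMI was 0.0558% for Dll4, with a highest value of 1.51%, and 0% for Jag2, with 7 libraries at 0 and a highest value of 0.984%. Among mature DC-like cells Jag1 ran from 0 to 68.6 CPM (median 23.4) in 9 libraries, and among cDC1-like cells it was at most 5.49 in any library with at least 20 cells, so the ranges overlapped.

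Between cDC2-like and cDC1-like cells of 9 libraries, 4 of 6 members passed edgeR, against 51.3% of genes, and Dll1, Dll4 and Hey1 were below the filter. Jag2 was 0 to 3.52 CPM (median 1.55) in cDC2-like and 3.00 to 25.2 (median 9.60) in cDC1-like cells. It was lower in 9 of 9 libraries with a log2 change of -2.27 ± 0.27 (edgeR adjusted p = 4.14e-07). Notch4 was 0 to 7.64 against 2.87 to 10.5, lower in 9 of 9 by a change of -1.55 ± 0.24 (edgeR adjusted p = 1.70e-05). That is a difference at a low level. Mean Notch4 was 5.28 (0 to 8.28) in neutrophil-like and 1.12 in T or NK-like cells, both set as background for it. Notch2 was 130 to 281 (median 175) against 104 to 297 (median 220), lower in 8 of 9 by a smaller change, -0.20 ± 0.07 (edgeR adjusted p = 0.0168). Hes1 changed by -0.63 ± 0.25 (edgeR adjusted p = 0.0441) and lost the call in 8 of 17 alternatives. It is a difference at a low level, with means of 6.28 in cDC2-like and 17.4 in cDC1-like cells against 16.2 in T or NK-like cells. Beside it, 7 of 10 immediate early and heat shock genes were higher and 1 lower in cDC2-like cells, with a median change of 0.97, and their part was not tested. Among 36 other pathway genes tested, 12 were higher and 8 lower in cDC2-like cells, near the 51.3% of all genes. They include Maml3 with 1.72, Neurl3 with 1.49, the fringe glycosyltransferases Mfng with 1.02 and Lfng with 0.70, Adam10 with 0.67 and Psen2 with -1.18.

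In DC-like cells over the diet, 0 of 7 members tested, Dll1 and Hey1 being below the filter, passed edgeR against D0, where 0.18% of genes did, or between progression and onset, where 0% did. The unadjusted counts were 1 and 1, and DESeq2 called 0 and 0. The 1 against D0 was Hes1, which is low in DC-like cells. It changed by -1.48 ± 0.49 (edgeR adjusted p = 0.208), beside -1.52 in macrophage-like cells. Dll4 within pDC-like cells was 10.2 CPM in D0 B, 9.78 in D3 B, 15.8 in D5 A and 30.2 in D5 B. It was 35.3 in D9 A, 45.0 in D9 B, 53.2 in D19 B and 47.1 in D25 B. The D0 B and D3 B values lay within the 0 to 14.2 of neutrophil-like cells, which were set as background for ligands. In pDC-like cells every progression library was above every onset library and above D0 B. A test within pDC-like cells, chosen after these values were seen, gave 1.08 ± 0.33 from onset to progression (edgeR adjusted p = 0.478) and 1.28 ± 0.47 against D0 (edgeR adjusted p = 0.0688), the latter with the single library D0 B at D0. Over all DC-like cells Dll4 changed by 1.76 ± 0.47 from onset to progression (edgeR adjusted p = 0.556), while pDC-like cells made 1.72% to 29.2% of DC-like cells in a library.

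Over the members tested, the median log2 change between DDC and D0 was -0.37 in BEC-like, -0.15 in LSEC-like, -0.05 in large-vessel, 0.42 in macrophage-like and -0.25 in DC-like cells. The medians of all genes tested were 0.02, -0.03, 0.02, 0.02 and -0.04. From onset to progression the members' medians were 0.23, 0.05, -0.12, 0.21 and -0.22. Between kinds of cell they were 0.11 for BECs with against without Dmbt1 or Muc4 UMIs and 0.41 for large-vessel against LSEC-like cells. They were -0.47 for DC-like against macrophage-like, 0.33 for large-vessel cells with against without Gja4 or Gja5 UMIs, and -0.42 for cDC2-like against cDC1-like cells.

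**Figure D5:**
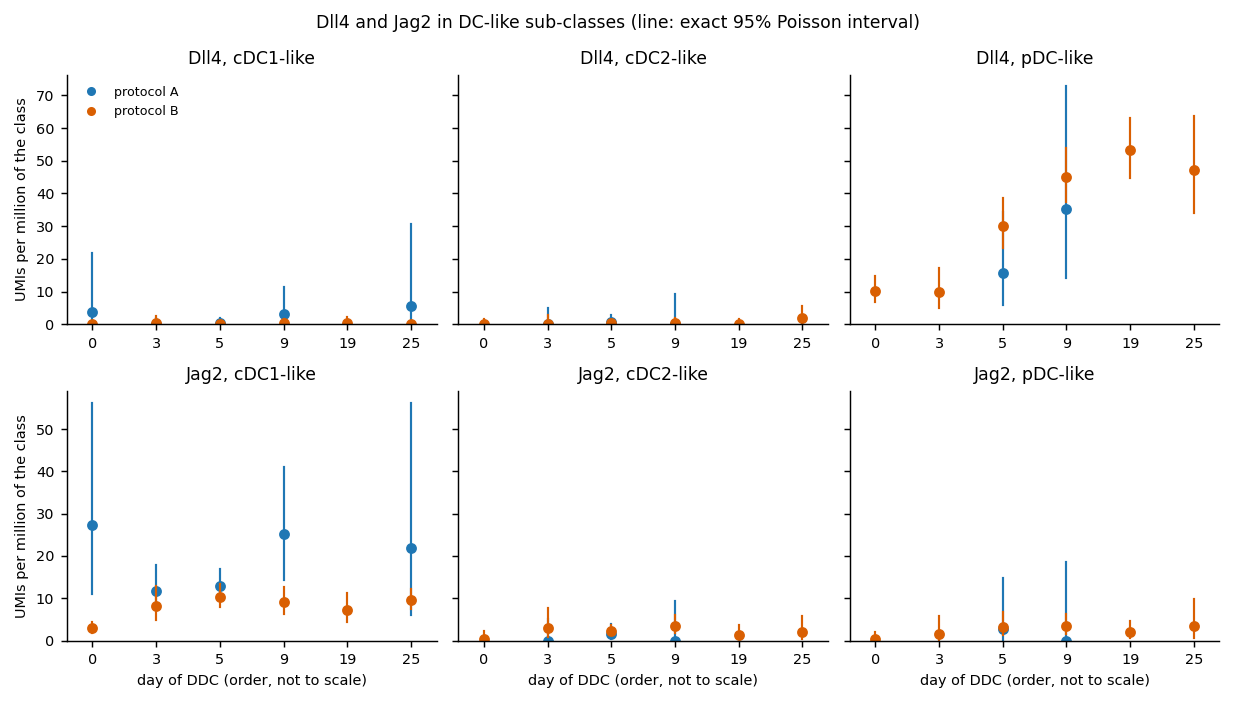
Levels of Dll4 and Jag2 in subsets of DC-like cells by diet day, in CPM. Points are libraries with at least 20 cells of the subset. Dll4 in pDC-like cells runs from 9.78 to 53.2, and Jag2 is highest in cDC1-like cells.

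The recovery library STOP is set beside D19 B, which used the same protocol, with exact 95% Poisson intervals that cover counting error only. With 1 library each there is no test. BEC-like Hes1 was 217 CPM (199 to 236) in STOP and 353 (339 to 368) in D19 B, and STOP was below all 9 atlas libraries, which began at 273. BEC-like Jag1 was 264 (244 to 285) in STOP and 208 (196 to 219) in D19 B, and Dll1 was 7.06 and 13.9. LSEC-like Hes1 was 239 (226 to 253) and 435 (412 to 458), but D19 B stood apart from the other progression libraries, at 245 to 270.

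Large-vessel Jag1 was 643 (561 to 734) CPM in the 53 cells of STOP and 278 (220 to 348) in the 39 cells of D19 B, and STOP was above all 8 atlas libraries. Cells with a Gja4 or Gja5 UMI were 75.5% of these in STOP and 46.2% in D19 B. Dll1 there was 111 (78.2 to 152) and 21.7 (7.96 to 47.2). Macrophage-like Hes1 was 59.2 and 60.7. DC-like Dll4 was 1.84 in STOP and 15.3 in D19 B, and Jag2 9.93 and 2.99, while pDC-like cells were 7.81% and 29.2% and cDC1-like cells 66.4% and 22.2% of DC-like cells. Within pDC-like cells Dll4 was 30.6 (17.5 to 49.6) and 53.2 (44.7 to 63.0).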

How the data were processed

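Each library's deposited file holds UMI counts as the authors obtained them with kallisto on GRCm38, according to the submitters' processing notes, before any normalization or cell filter. 10x 3' kits with single (protocol A) and dual (protocol B) index were used. Counts of a 3' kit are set by the end of the transcript, so levels were not compared between genes.

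Barcodes with at least 1500 UMIs were kept. Each cell was given the class whose markers scored highest: the mean of the 3 highest log2(1 + UMIs per 10000) values, with at least 3 markers, a score of at least 1 and no other lineage above 0.6 of it (hepatocyte rivals from a score of 4). This rule was set after the markers were examined. No doublet caller was run, and cells with markers of a second lineage past that limit got no class. Counts were summed per library and class with at least 20 cells and tested with edgeR 4.0.16 (R 4.3.3, limma 3.58.1), quasi-likelihood with TMM, edgeR's filter on low counts and Benjamini-Hochberg over all genes at 0.05. Diet comparisons (DDC against D0, progression against onset) had a term for protocol, and comparisons of classes a term for library. Members and lists were chosen with earlier results of these data known. The text names the 10 members in each comparison, of 56 other pathway genes up to 6 called with the smallest adjusted p, and the 3 genes most like each member. Some genes under this rule are not reported here. Alternatives were DESeq2 1.42.0, no filter, other UMI and cell minimums, a stricter marker rule, removal of the deepest barcodes, thinning, each protocol alone and each library left out. The scripts were checked on simulated data with 200 genes given a log2 change of 2. In BEC-like cells against D0, edgeR recovered 32% of these genes, and 11.1% of its calls were false. In the other comparisons it recovered 62% to 94.5%. A count of 0 members called therefore does not show that no member changed. Python 3.11.15, numpy 2.4.6, pandas 2.3.3, scipy 1.17.1 and matplotlib 3.10.9 were used.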

Additional observations from a re-analysis of the deposited data

Results flagged for a closer look

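In 51 groups of 4 to 6 libraries with a median of at least 10 CPM, the highest or lowest library was set against the others with Dixon's ratio, which chance passes in about 1 in 20 groups, and 4 passed. Hes1 in BECs with Dmbt1 or Muc4 UMIs was 1290 CPM in D25 B (2121 UMIs in 83 cells), against 217 to 390 in the other 4 progression libraries. Hes1 in LSEC-like cells was 435 in D19 B (1382 UMIs, 483 cells), against 245 to 270 in the other 5 progression libraries. Notch1 in LSEC-like cells was lowest in D25 B with 29.5 (59 UMIs, 227 cells), against 68.6 to 91.0. Dll4 in LSEC-like cells was 108 in D3 B (112 UMIs, 99 cells), against 46.2 to 54.6 in the other 3 onset libraries.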

How the results depend on the processing

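The members gave 24 calls over all comparisons. Of 434 refits of these calls under alternatives, 403 kept direction and call, 30 lost the call and 1 reversed. Refits where the member was below the filter are not among them. In the refits counted, 14 calls kept both throughout. Hey1 in large-vessel against LSEC-like cells and Jag2 in cDC2-like against cDC1-like cells are among these. Both were below the filter without the library term and so were not called there. The reversal was Dll4 in DC-like against macrophage-like cells, -1.12 without pDC-like cells. The cause was not tested here or for the changes below.

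The number of members called against D0 went from 0 to 1 in BEC-like cells with DESeq2 and with no filter (Notch2), in LSEC-like cells with DESeq2 (Hes1) and in DC-like cells with no filter (Hes1). With no filter it went from 0 to 1 between progression and onset in LSEC-like (Dll1) and DC-like cells (Dll4), and from 0 to 3 in large-vessel cells (Dll1, Jag2 and Notch2). In macrophage-like cells against D0 it went from 1 to 2 with no filter and from 1 to 0 in protocol A alone and in protocol B alone. In BECs it went from 4 to 2 after thinning (Jag1 and Notch2), and in large-vessel against LSEC-like cells from 6 to 3 with no library term. Between large-vessel cells with and without Gja4 or Gja5 UMIs it went from 2 to 1 with DESeq2, with at least 3000 UMIs, without the deepest 5% of barcodes and after thinning, and to 0 with no library term. In cDC2-like against cDC1-like cells it went from 4 to 1 with no library term (Notch4).

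With each library left out in turn, it was 0 to 1 for large-vessel cells between progression and onset (1 without D9 A, Notch2), 1 to 2 for the Gja4 or Gja5 split (1 without D0 A, D3 A or D19 A), 3 to 4 for cDC2-like against cDC1-like, 6 to 7 for large-vessel against LSEC-like and 7 to 8 for DC-like against macrophage-like cells. Without D0 A the macrophage-like call was Jag1 and not Hes1.

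The count of all genes called moved by more than 1.5 times in at least 1 alternative of each comparison but DC-like against macrophage-like cells. Against D0 it was 124 (4 to 1381 over the alternatives) in BEC-like, 68 (14 to 638) in LSEC-like, 10 (3 to 264) in large-vessel, 414 (159 to 1060) in macrophage-like and 23 (2 to 1786) in DC-like cells. Between progression and onset it was 0 (0 to 245), 4 (0 to 479), 24 (0 to 219), 16 (2 to 646) and 0 (0 to 258) in the same order. Between kinds of cell it was 5612 (1793 to 5819) for BECs, 4754 (2483 to 5723) for large-vessel against LSEC-like, 8537 (5919 to 9078) for DC-like against macrophage-like, 212 (1 to 332) for the Gja4 or Gja5 split and 5252 (2535 to 5410) for cDC2-like against cDC1-like cells.

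The replicate number of a day stands for protocol A or B, so the term for protocol is the replicate block of the diet comparisons. Without this replicate block, the number of members called went from 1 to 0 in macrophage-like cells against D0 and was 0 in the other 9 diet comparisons, as with it. The count of all genes against D0 was then 466 in BEC-like, 34 in LSEC-like, 4 in large-vessel, 159 in macrophage-like and 13 in DC-like cells. Between progression and onset it was 0, 4, 1, 6 and 0. The fits without this term and the alternatives by Kupffer marker, duct marker and DC subset were chosen after seeing the data.

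At a median depth of 3350 to 12013 UMIs per cell, low levels in classes of few cells rest on few UMIs, and a member below the filter was not tested rather than absent. After every cell was thinned to 1500 UMIs the median share of cells with a UMI moved to 20.5% for Jag1, 4.84% for Dll1 and 14.6% for Notch1 in large-vessel cells, to 7.85% for Dll4 and 5.20% for Notch4 in LSEC-like cells, and to 0.769% for Jag2 and 23.0% for Notch2 in DC-like cells.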

Other observations

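Lymphatic endothelial-like cells (349, with Prox1, Ccl21a, Mmrn1, Pdpn and Reln as markers) had Hes1 at 1063 CPM in D0 A, 735 in D9 A, 798 in D19 A, 561 in D25 A and 392 in D25 B, and at 198 in the recovery library. Hey1 in the same libraries was 38.5, 45.8, 59.2, 40.0 and 33.8, and 5.56 in the recovery library, from 60, 50, 64, 79, 28 and 52 cells. These values had no test, and Pdpn was among the gates of protocol A alone.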
